A study of Homo sapiens with 6 samples.

Results

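Amino acid transporter genes around SLC7A5 were described in MDA-MB231 cells, an established human line from a metastatic breast cancer, with and without a knockdown of G9a. The 10 genes were SLC7A5, SLC3A2, SLC7A11, SLC7A1, SLC1A4, SLC1A5, SLC38A1, SLC38A2, SLC6A9 and SLC6A14, and all 10 were measured, among 18417 genes in all. They were taken by name as carriers of amino acids, and the set was chosen by the measured difference of SLC7A5, which had been seen higher in the knockdown while targets of the stress factor ATF4 tended lower. The differences between knockdown and control below are therefore a description of these genes and were given no test of their own.

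Total RNA was read with a biotin label on 6 single-colour arrays. Of these, 3 were of untreated parental cells (control) and 3 of 1 clone of the same line carrying a stable G9a knockdown. G9a is the product of EHMT2, an enzyme that methylates lysine on histone H3 and so marks genes for silencing. The clone was compared with parental cells and not with a control clone, so effects of the knockdown and of picking 1 clone cannot be told apart. The labels do not say whether replicates were separate cultures; p-values then reflect the spread among these arrays alone, which could be technical. In RNA of a whole culture, fewer cells with a transcript and less of it per cell cannot be told apart. Values are log2 intensities, differences are knockdown minus control with the standard error (SE) from limma, and n = 3 arrays per group throughout.

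Amino acid carriers of the plasma membrane divide the work of supplying a growing cell. SLC7A5 (LAT1) and SLC7A11 (xCT) are light chains that each pair with the same heavy chain, SLC3A2 (CD98), which brings them to the membrane: SLC7A5 exchanges internal glutamine for leucine and other large neutral amino acids, and SLC7A11 exchanges glutamate for cystine, the source of cysteine for glutathione. SLC1A5 (ASCT2), SLC1A4 (ASCT1), SLC38A1 and SLC38A2 (SNAT1 and SNAT2) bring in glutamine, alanine or serine, SLC7A1 (CAT1) carries arginine and lysine, SLC6A9 (GlyT1) carries glycine, and SLC6A14 carries neutral and cationic amino acids. Many of these genes are known targets of ATF4, a transcription factor whose translation rises when amino acids run short.

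The knockdown was read first. In the clone, EHMT2 fell by 0.55 ± 0.10 (SE; limma, adjusted p = 0.0259), with no overlap between the groups; with 1 array left out it passed only without control replicate 3 (adjusted p from 0.0101 to 0.122 over the 6 fits). Array medians lay between 7.79 and 7.86. Of the line's markers, VIM, CD44, KRT8 and KRT18 had control means from 12.21 to 13.63 and did not pass the test, and ESR1, low in this line, had 6.73. CDH1 (E-cadherin), also low in this line, had 7.16 and rose by 0.45 (limma, adjusted p = 0.0177; 0.0119 to 0.0983 with 1 array left out, passing only without control replicate 3). Control means of 3 leukocyte markers ran from 4.94 (PTPRC) to 7.69 (CD14) and of 4 fibroblast markers from 4.45 (DCN) to 8.71 (COL1A1), and none of the 7 passed; no detection call was used, so absence cannot be stated. One control array, replicate 3, stood apart on several of the transporter genes, and members' differences are given with and without it where it moved them.

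SLC7A5 read higher in the clone on every array. Its values were 12.51, 12.50 and 12.55 in control and 12.96, 12.96 and 12.92 in the knockdown. The means were 12.52 ± 0.03 and 12.94 ± 0.02 (SD, n = 3), and this rise is the one that chose the set. The difference was 0.42 ± 0.06 (SE), or 1.34-fold, and it lay between 0.41 and 0.44 with any 1 array left out, although its call in the fit over all genes was lost without control replicate 2 or knockdown replicate 1 or 3. SLC7A5 read 0.05 higher on control replicate 3 than the mean of the other control arrays, an excess that 41.4% of all genes matched or passed. The 38 tested genes nearest to SLC7A5 on its chromosome had a median difference of 0.08, with 34 of them above 0 and none past the test's threshold in either direction. Over all 18417 genes, 10976 differences were above 0, with a median of 0.03. The part of this stretch in the SLC7A5 difference was not tested.

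The promoter of SLC7A5 is shown with that of SLC7A8, a related light chain described further on, because both hold the E-box CACGTG, the palindrome bound by MYC and related factors, at about the same distance before a transcription start. Both are RefSeq sequences of GRCh38.p14, on the minus strand, at chr16:87869604-87869663 and chr14:23154489-23154548. They are written 5′ to 3′ in the direction of transcription with the E-box in capitals, whose first base lies 130 and 129 bases before the start:
SLC7A5: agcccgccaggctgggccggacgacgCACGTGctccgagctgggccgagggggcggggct
SLC7A8: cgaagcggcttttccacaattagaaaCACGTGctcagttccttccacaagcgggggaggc
The SLC7A8 stretch belongs to 1 of several annotated starts of that gene. Windows reaching from 250 bases before a start to 50 after it were searched, and 7.26% of the 35116 windows of all genes held CACGTG. The pair was picked from a search that also covered SLC38A7 and SLC43A2, both described further on. In SLC38A7 the E-box begins at base 15 after the start, and none was found for SLC43A2. SLC1A5, which read lower in the clone, holds it as well, 50 bases before a start. A match is a string of letters and not a measured binding site, and a link to the differences was not tested.

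The heavy chain did not read higher with its light chain. SLC3A2 read 12.48, 12.50 and 12.37 on the control arrays and 12.38, 12.45 and 12.33 on the knockdown arrays. The groups overlapped, and the difference was -0.06 ± 0.07 (SE), or -0.10 ± 0.06 (SE) without control replicate 3. Within each array the log2 ratio of SLC7A5 to SLC3A2, set to a mean of 0 over the control arrays, was -0.04, -0.07 and 0.11 in control and 0.50, 0.43 and 0.52 in the knockdown. The ratio thus shifted by 0.49, with SDs of 0.10 and 0.05, and by 0.54 without control replicate 3. At the RNA level the 2 chains of this carrier had unequal differences, and the shift largely restates the rise of SLC7A5 that chose the set.

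SLC7A11, the other light chain, read lower. Its values were 10.98, 10.89 and 11.79 in control and 10.46, 10.64 and 10.67 in the knockdown. The groups did not overlap, but control replicate 3 alone lay 0.86 above the mean of the other control arrays, an excess matched or passed by 0.157% of genes. The difference was -0.63 ± 0.21 (SE) over all arrays and -0.34 ± 0.08 (SE) without control replicate 3. Its 38 nearest tested genes had a median difference of -0.16, with 31 of them below 0 and 2 called lower, whereas the median over all genes was 0.03. SLC7A11 thus lay in a stretch of the genome that was lower in the clone; the part of that stretch in its difference was not tested.

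**Figure D1:**
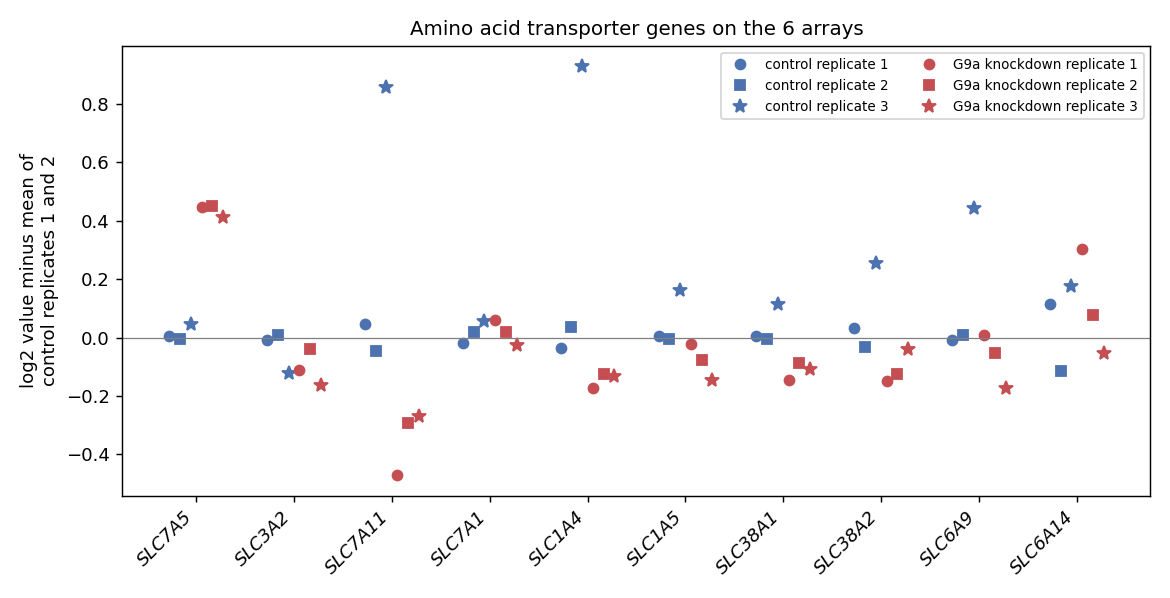
Each point is 1 array's log2 value for a gene minus that gene's mean over control replicates 1 and 2; blue marks control, red the G9a knockdown, and the symbol gives the replicate number. SLC7A5 is the gene whose 3 knockdown arrays all lie above all controls, and control replicate 3 (blue star) lies 0.86 and 0.93 up for SLC7A11 and SLC1A4.

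The sodium-dependent exchangers of the SLC1 family both read lower, by unequal amounts. SLC1A4 read 9.05, 9.12 and 10.01 in control and 8.91, 8.96 and 8.95 in the knockdown. Control replicate 3 was 0.93 above the other control arrays, an excess matched or passed by 0.109% of genes, while the knockdown arrays were tight (SD 0.03, n = 3). The difference of -0.45 ± 0.22 (SE) became -0.14 ± 0.06 (SE) without that array. SLC1A5, the main glutamine carrier of many tumour cells, read 12.17, 12.16 and 12.33 in control and 12.15, 12.09 and 12.02 in the knockdown. Its groups were narrowly apart, with a difference of -0.13 ± 0.07 (SE), and -0.08 ± 0.06 (SE) without control replicate 3. SLC1A5 has a further probe set of lower mean signal, whose difference was also -0.13 but whose groups overlapped (8.69, 8.42 and 8.79 against 8.73, 8.33 and 8.45).

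SLC1A4 and SLC1A5 are also the members whose windows hold the core of the amino acid response element, TGATGNAA, to which ATF4 binds with C/EBP proteins, with C as the variable base. Their stretches are shown to set them beside SLC7A5, whose window gave no match; that says only that these letters are not in this window. The SLC1A4 stretch is chr2:64989340-64989399 on the plus strand and the SLC1A5 stretch chr19:46784878-46784937 on the minus strand, both from RefSeq's GRCh38.p14, at 1 of several annotated starts of each gene. They are written 5′ to 3′ with the element in capitals, reversed in SLC1A4, beginning 7 and 97 bases before the start:
SLC1A4: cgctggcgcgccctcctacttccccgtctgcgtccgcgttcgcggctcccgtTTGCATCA
SLC1A5: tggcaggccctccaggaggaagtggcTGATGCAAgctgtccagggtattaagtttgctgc
Of the 10 genes 9 were matched, with 15 windows in all; SLC7A11 was not. TGATGNAA, on either strand, was in 5 of the 15 windows, those of SLC3A2, SLC7A1, SLC1A4, SLC1A5 and SLC38A1, and in 3.62% of all windows. Of these, SLC3A2 and SLC7A1 had differences of -0.06 and -9.67e-04, and SLC38A1 had -0.15. SLC38A2 and SLC6A9, at -0.19 and -0.22, gave no match. A link between matches and differences was not tested. CACGTG was in 2, those of SLC7A5 and SLC1A5. The antioxidant response core TGACNNNGC, on either strand, was in 4, those of SLC7A5, SLC3A2, SLC7A1 and SLC1A5, and in 13.3% of all windows.

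The glutamine and alanine carriers SLC38A1 and SLC38A2, which are neighbours on 1 chromosome, read slightly lower. SLC38A1 read 13.16, 13.15 and 13.27 in control and 13.01, 13.07 and 13.05 in the knockdown, without overlap. Its difference was -0.15 ± 0.06 (SE), and -0.11 ± 0.05 (SE) without control replicate 3. SLC38A2, which cells raise when starved of amino acids, read 13.10, 13.03 and 13.32 in control and 12.92, 12.94 and 13.03 in the knockdown. The groups were only just apart, at 13.026 against 13.031, and the difference was -0.19 ± 0.08 (SE), or -0.10 ± 0.06 (SE) without control replicate 3. The tested genes around the 2 loci, largely the same genes, had a median difference of 0.05, against 0.03 over all genes.

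The other members showed no separation between the groups. SLC7A1 read 12.22, 12.26 and 12.30 in control and 12.30, 12.26 and 12.21 in the knockdown, a difference of -9.67e-04 ± 0.06 (SE) whose sign turned with single arrays left out (from -0.02 to 0.02). SLC6A9 read 9.84, 9.86 and 10.29 in control and 9.86, 9.80 and 9.67 in the knockdown. Its difference of -0.22 ± 0.12 (SE) was -0.07 ± 0.07 (SE) without control replicate 3, which lay 0.45 above the other control arrays. SLC6A14 read 4.85, 4.62 and 4.91 in control and 5.04, 4.81 and 4.68 in the knockdown, and its probe set was in the lowest 33.3% of genes by mean value. Its difference of 0.05 ± 0.11 (SE), 0.11 ± 0.12 (SE) without control replicate 3, changed sign when control replicate 2 or knockdown replicate 1 was left out.

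**Figure D2:**
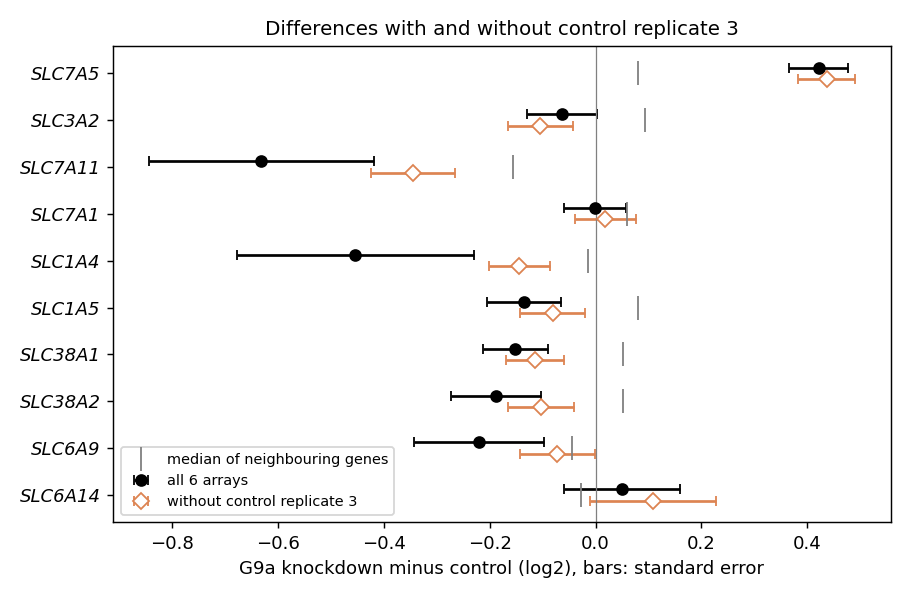
Differences between G9a knockdown and control (log2, bars are standard errors from limma) for the 10 genes, with all 6 arrays (black) and without control replicate 3 (orange), and the median of the 38 nearest tested genes (grey ticks). SLC7A5 stays at 0.42 to 0.44, while SLC7A11 moves from -0.63 to -0.34 and SLC1A4 from -0.45 to -0.14.

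Counted together, 8 of the 10 differences were below 0 and 2 above, with a median of -0.14, against 0.03 over all genes. Over all 18417 genes, 7441 differences were below 0 and 10976 above. Without control replicate 3 the median of the 10 genes was -0.09. In the fit over all genes 1 member, SLC7A5, was called higher and none lower (limma, adjusted p of 0.05; 2 lower at an unadjusted p of 0.05); the member count was 0 without control replicate 2 or knockdown replicate 1 or 3. Of all genes 1.28% were called higher and 1.78% lower, and 10.1% were higher and 9.23% lower at an unadjusted p of 0.05. The groups did not overlap for 1 member that was higher and 5 that were lower, where 14.3% of all genes were apart with the knockdown higher and 12.7% with it lower. Since the set was proposed from this contrast, nothing is read from these counts.

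The control arrays also differed among themselves. Control replicate 3 is part of every control mean, so its readings are not independent of the differences that the rule used. On control replicate 3, 9 of the 10 genes read above both other control arrays, as did 42.6% of all genes; SLC3A2 was the exception, 0.12 below their mean. The median excess over the other control arrays was 0.17 for the 10 genes and 0.01 over all genes. Averaged over the 10 genes, control replicate 3 lay 0.19 above the control mean, and the knockdown arrays lay between -0.03 and 0.01 of theirs. The excess was largest for SLC1A4 (0.93), SLC7A11 (0.86) and SLC6A9 (0.45), between 0.11 and 0.25 for SLC38A1, SLC1A5, SLC6A14 and SLC38A2, and smallest for SLC7A1 (0.06) and SLC7A5 (0.05).

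ATF4 and most genes of its pathway outside the transporters also read high on that array. ATF4 itself read 11.04, 11.03 and 11.37 in control and 10.85, 10.88 and 10.90 in the knockdown. Of 27 measured genes of the ATF4 pathway, 21 read above both other control arrays on control replicate 3, as did 42.6% of all genes. The list's median excess was 0.33, with a range from -0.32 (ATF5) to 1.26 (CHAC1). ASNS, which makes asparagine, read 8.75, 8.89 and 10.03 in control and 8.22, 8.14 and 8.21 in the knockdown, and CTH, which makes cysteine, read 9.33, 9.33 and 10.49 against 8.90, 8.94 and 8.76. None of the 27 was called (limma), where 3.05% of all genes were called in either direction; at an unadjusted p of 0.05, 0 were higher and 12 lower, where 9.23% of all genes were lower. The list's median difference was -0.22, with 26 of 27 below 0, as were 7441 of all 18417 genes. Without control replicate 3 the median was -0.14 and 5 were called lower, as were 1.7% of all genes: DDIT3, CHAC1, VLDLR, ASNS and CTH, with ASNS at -0.63 and CTH at -0.46 (limma, adjusted p = 0.0125 and 0.0286; over the 6 fits with 1 array left out from 0.0125 to 0.246 and from 0.0286 to 0.321). SLC7A5 was higher in the clone where this list was mostly lower, which is the pattern that chose the set. SLC7A11, SLC1A4 and SLC6A9 shared the list's sign and its high readings on control replicate 3. These traits are not separate, since a high control array also lowers the difference. What that array's readings reflect was not tested.

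**Figure D3:**
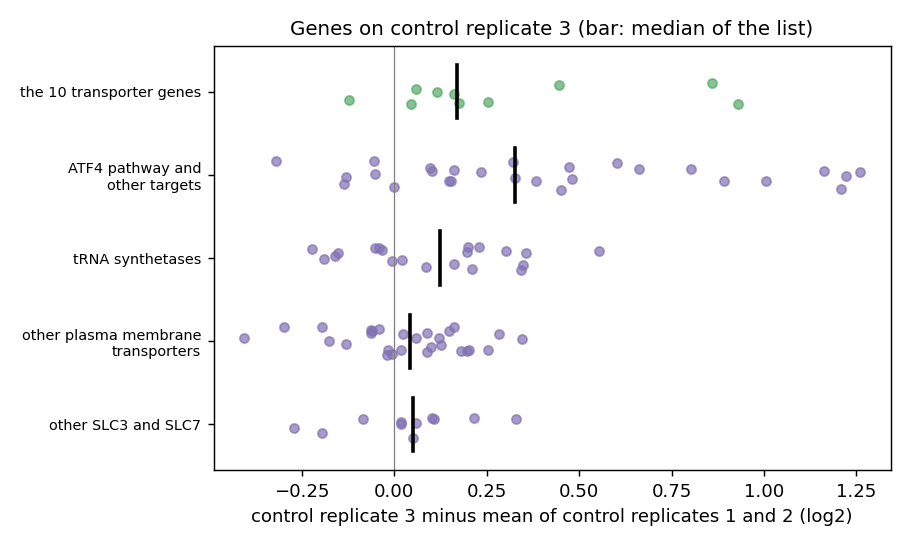
Each point is a gene's log2 value on control replicate 3 minus its mean over control replicates 1 and 2, with the list's median as a bar and scatter within a row only to separate points. The 10 transporter genes (median 0.17) lie between the ATF4 pathway list (median 0.33) and the other transporters (medians 0.04 and 0.05). Many of the other transporters had low signal.

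Other carriers that overlap with SLC7A5 in substrate were measured on the same arrays. SLC7A8 (LAT2), a light chain of SLC3A2 for large and small neutral amino acids, read 8.76, 8.93 and 8.57 in control and 9.40, 9.37 and 9.52 in the knockdown. It rose by 0.68 ± 0.10 (SE; limma, adjusted p = 0.0132), or 1.60-fold, with no overlap; with 1 array left out the adjusted p ran from 0.0210 to 0.0801 and missed the threshold without knockdown replicate 1 (0.0600) or 3 (0.0801). SLC43A2 (LAT4), a carrier of branched-chain amino acids and phenylalanine that needs no heavy chain, read 9.59, 9.71 and 9.46 in control and 10.02, 9.94 and 9.95 in the knockdown. It rose by 0.38 ± 0.08 (SE; limma, adjusted p = 0.0395), but missed the threshold with any 1 array left out (0.0560 to 0.142) and with the replicate number as a block (0.0808). SLC38A7 (SNAT7), listed with the plasma membrane carriers although it is known for exporting glutamine from lysosomes, rose by 0.32 ± 0.06 (SE; limma, adjusted p = 0.0288), and with 1 array left out passed only without control replicate 3 (0.0452; others up to 0.122); with the replicate block it was 0.0812. The 38 tested genes around each of these 3 loci had medians of 0.02, 0.01 and 0.04.

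Not every leucine carrier read higher. SLC43A1 (LAT3), named after its values were seen, read 9.85, 9.87 and 10.01 in control and 9.88, 9.86 and 9.83 in the knockdown, a difference of -0.05 ± 0.06 (SE). SLC7A6 and SLC7A7, the y+L light chains that exchange cationic for neutral amino acids and also pair with SLC3A2, were at 9.00e-04 ± 0.06 and -0.08 ± 0.10 (SE) and are likewise named after their values were seen. Thus the SLC3A2 partners named here read higher (SLC7A5 and SLC7A8), lower (SLC7A11) or near 0 (SLC7A6 and SLC7A7), where the heavy chain read -0.06. SLC7A11 was not called, and its fall was smaller without control replicate 3. SLC7A7 had low signal, from 7.06 to 7.42, so its small difference says less than that of SLC7A6, which read from 11.35 to 11.41. Of the 11 other SLC3 and SLC7 genes 1 rose, none fell and 10 did not pass (1 higher and 0 lower at an unadjusted p of 0.05), with a median of 9.00e-04. Of 28 other amino acid carriers, mostly of the plasma membrane, 2 rose, none fell and 26 did not pass (limma), with a median of 0.08 and 21 of 28 above 0. At an unadjusted p of 0.05, 4 of these were higher and 1 lower. Of all genes, 1.28% were called higher and 1.78% lower (limma), and 10.1% were higher and 9.23% lower at that unadjusted p. Differences were above 0 for 10976 of all 18417 genes. Without control replicate 3, SLC36A1, a lysosomal and plasma membrane proton-coupled carrier named after its values were seen, was called lower at -0.31 (limma, adjusted p = 0.0391; up to 0.490 with another array left out), against -0.21 over all arrays. The other carriers thus had medians at or above 0, where the 10 genes around SLC7A5 had -0.14. Many of the other carriers had low signal, while of the 10 genes SLC6A14 alone lay in the lowest 33.3% by mean value. The lower quartile of all values was 6.16 on knockdown replicate 1 and 6.08 to 6.11 on the other arrays. The lists thus differ in signal level, and the difference between their medians was not tested.

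**Figure D4:**
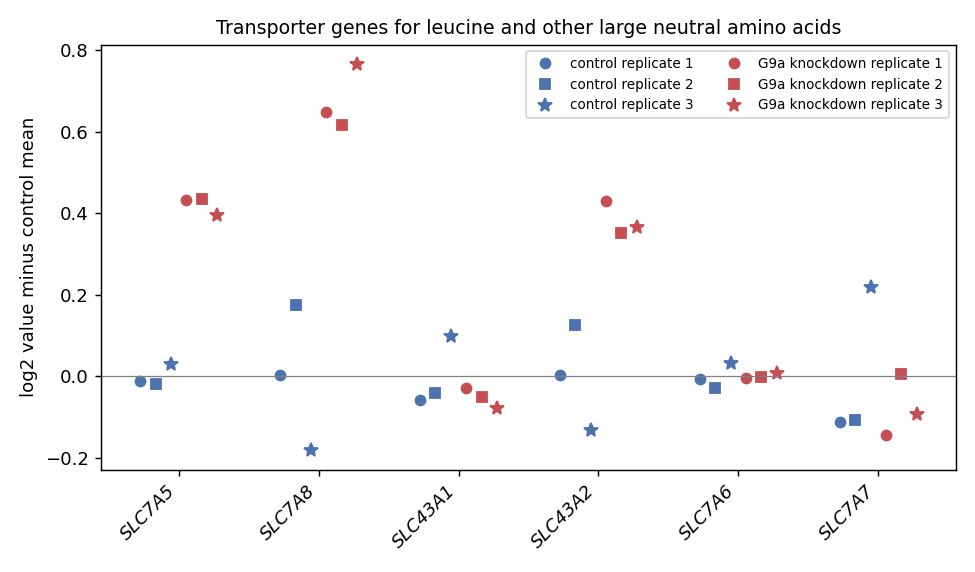
Log2 values on each array minus the gene's control mean for SLC7A5 and 5 other carriers of leucine and similar amino acids; blue marks control, red the G9a knockdown. The knockdown arrays lie above all controls for SLC7A5, SLC7A8 and SLC43A2 and overlap with them for SLC43A1, SLC7A6 and SLC7A7.

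Genes that use or sense the amino acids brought in by these carriers were listed as well. Among 20 measured tRNA synthetase genes and partners, LARS1, which charges tRNA with leucine, fell by 0.57 ± 0.10 (SE; limma, adjusted p = 0.0253), 0 rose and 19 did not pass, with a median of -0.14 and 16 of 20 below 0. At an unadjusted p of 0.05, 0 of these were higher and 7 lower, and the groups did not overlap for 9 that were lower and 2 that were higher. Of all genes, 1.28% were called higher and 1.78% lower (limma), and 10.1% were higher and 9.23% lower at that unadjusted p. The groups were apart for 12.7% of all genes with the knockdown lower and 14.3% with it higher. Differences were below 0 for 7441 of all 18417 genes. Without control replicate 3, HARS1, which charges tRNA with histidine and was named after its values were seen, was called lower too, at -0.37 (limma, adjusted p = 0.0300; up to 0.239 with another array left out). LARS1 missed the threshold without control replicate 2 (0.0638) and without any 1 of the knockdown arrays (0.0519 to 0.0911), and its 38 nearest tested genes had a median of -0.23 with 9 called lower. Among 26 genes of mTORC1 and lysosomal sensing, SAR1B, a leucine sensor, fell by 0.40 ± 0.08 (SE; limma, adjusted p = 0.0322) and FNIP1, a partner of folliculin, by 0.32 ± 0.06 (SE; limma, adjusted p = 0.0397), none rose and 24 did not pass (0 higher and 4 lower at an unadjusted p of 0.05), with a median of 0.0049. SAR1B passed only without knockdown replicate 2 among the fits that left out 1 array (0.0363 to 0.138), and FNIP1 in none of them (0.0624 to 0.150); with the replicate block they were at 0.0664 and 0.101. The genes around SAR1B and FNIP1 were lower too, with medians of -0.10 and -0.09 and 5 called lower around each. Those around HARS1 and SLC36A1 had medians of -0.06 and -0.14, with 4 called lower around each. LARS1, SAR1B, FNIP1, HARS1 and SLC36A1 lie on the same chromosome. The part of these stretches in their falls was not tested.

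Of 19 enzymes of glutamine, glutathione and branched-chain metabolism none was called (limma; 2 higher and 3 lower at an unadjusted p of 0.05), with a median of -0.0084. Of all genes 3.05% were called in either direction (limma), and 10.1% were higher and 9.23% lower at that unadjusted p. The largest differences among these enzymes were those of the branched-chain ketoacid dehydrogenase subunits, DBT at -0.31 and BCKDHB at 0.27. Of 11 transcription regulators linked to these carriers, BACH1, a repressor of oxidative stress genes, fell by 0.70 ± 0.13 (SE; limma, adjusted p = 0.0303), none rose and 10 did not pass (1 higher and 2 lower at an unadjusted p of 0.05). Without knockdown replicate 1, 2 or 3 or control replicate 1, BACH1 missed the threshold (0.124, 0.0733, 0.117 and 0.0515). MYC, whose product binds E-boxes and which was named after its values were seen, read 12.26, 12.25 and 12.44 in control and 12.18, 12.14 and 12.10 in the knockdown, a difference of -0.18 ± 0.07 (SE), and -0.12 ± 0.06 (SE) without control replicate 3.

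By their values over the 6 arrays, the genes most like SLC7A5 outside the lowest 33.3% of mean value were DIO2, a deiodinase that activates thyroid hormone, the adhesion receptor gene ADGRG1 and PRR12, with Pearson r of 0.998, 0.998 and 0.997. These points are 6 arrays in 2 groups, so r mainly restates a step between the groups with little spread inside them. DIO2 rose by 0.67 and ADGRG1 by 0.57 (limma, adjusted p = 0.00329 and 0.00573), and both passed with any 1 array left out, while PRR12 was at 0.21 and did not pass. Among the members, r with SLC7A5 ran from -0.84 for SLC38A1 to 0.06 for SLC7A1, without SLC6A14, which lay in the lowest 33.3%.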

How the data were processed

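The deposited log2 values, 1 per probe set and array, had been summarised by the authors; their software, scaling and log base were not given in the sources used here, and log2 was inferred from the range. Of 33297 probe sets, 19460 carried 1 gene symbol in the platform annotation, updated by Entrez number against RefSeq (GRCh38.p14). Each of 18417 genes was its probe set with the highest mean over the 6 arrays; no member shared a probe set with another gene. Groups came from sample titles. All genes were fitted with limma 3.58.1 in R 4.3.3 (lmFit, eBayes, no trend, two-sided, Benjamini-Hochberg over all genes, threshold 0.05, 4 residual degrees of freedom). The step was tested on simulated data. Array number and missing detection calls limit precision.

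Members and the 7 other gene lists were chosen with earlier results of these data known. Named were all members, EHMT2, up to 4 called genes per list (the 2 largest differences where none was called) and the 3 genes most correlated with SLC7A5; others are marked. Neighbours are the 19 tested genes on each side in RefSeq order. Of the lists' genes, 12 had no single-gene probe set and were not analysed here. Alternatives were quantile normalization, median centring, leaving out the lowest 33.3% of genes, averaging probe sets, an intensity trend, array weights, a replicate block and leaving out each array. Same-numbered arrays were not paired by their deviations (r = -0.246, 0.122 and 0.0877).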

Additional observations from a re-analysis of the deposited data

How the results depend on the processing

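The SLC7A5 difference stayed between 0.40 (median centring) and 0.44 under all 13 alternatives, and no value changed its sign among the called genes. The other members moved by less than 1 SD of their replicates, an SD that control replicate 3 widens for SLC7A11, SLC1A4 and SLC6A9; SLC7A1 and SLC6A14 had no settled sign. The median of the 10 genes ran from -0.17 to -0.09. Counts of calls depended on the setting. Genes called higher and lower, 235 and 327, were 1718 and 1610 with array weights, 434 and 649 with an intensity trend, 398 and 574 without the lowest 33.3% of genes, and 101 and 116 with the replicate block; with 1 array left out they ran from 21 to 222 and from 23 to 313. Genes of the other lists called higher and lower, 3 and 4, were 11 and 23 with array weights, 1 and 2 with the replicate block, and lower ones 14 with a trend and 10 without the lowest 33.3%; with 1 array left out they ran from 0 to 2 and from 0 to 9. SLC7A5 was among the calls with all 6 arrays, and the count of members called ran from 0 to 1 with 1 array left out, 0 without control replicate 2 or knockdown replicates 1 or 3. Same-numbered arrays share only a number, and the replicate block left SLC7A5 at 0.42. The causes were not tested.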
